A study of Danio rerio with 6 samples.

Results

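Keratins are the intermediate filament proteins of epithelial cells, and the 23 keratin genes among 36351 gene rows of the deposited counts were followed in sorted ctsk reporter cells of zebrafish. Within the family, rows were taken by name alone, as every row whose symbol begins with krt and a digit, with krtt or with cyt1. The family itself was chosen with earlier results of these data known. Bulk RNA sequencing was done on dsRed-positive cells sorted from skeletal tissue at 10 weeks post fertilization, with 3 libraries of clcn7-/- mutants and 3 of WT siblings. Every fish carried the ctsk:dsRed transgene, a red fluorescent reporter under the promoter of ctsk, whose product cathepsin K cuts bone collagen in osteoclasts. Each library held 5000 sorted cells from each of 2 fish, and the labels do not describe the clcn7 allele. The product of clcn7 exchanges chloride for protons across lysosomal membranes, and osteoclasts use it to acidify the space where they dissolve bone.

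Keratin filaments are built from obligate pairs of a type I and a type II chain. In fish and mammals alike, stratified epidermis makes keratins that differ between its basal layer, which touches the basement membrane, and its outer layer, which is called periderm in the zebrafish embryo and larva. In mammals, single-layered epithelia pair keratin 8 with keratin 18, the simple keratins. Which cells held the zebrafish genes of these names in the present samples was not tested. Osteoclasts, osteoblasts and blood cells are not known as keratin-rich cells. The labels call the sorted cells ctsk-positive osteoclasts. Levels are given as CPM (a gene's reads divided by its library's TMM-scaled total, on the usual counts-per-million scale). ctsk stood at 1024, 463.9 and 511.7 CPM in WT and at 1266, 1055 and 1262 CPM in mutants, so each mutant library lay above each WT library.

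Library totals over genes ran from 22739782 to 26951306 counts. Before any comparison of keratins, WT replicate 1 differed most among WT libraries, with a score of -45.9 on the first principal component against -78.8 and -80.5, and mutant replicate 2 lay nearest to WT among mutants at 39.7 against 75.5 and 90.1. The clcn7 transcript lay between 26.1 and 34 CPM in WT and between 28 and 39.1 CPM in mutants, which does not check the labels because the allele is not described.

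Keratin genes held 6.02%, 5.43% and 5.72% of all gene counts in WT replicates 1, 2 and 3. In mutant replicates 1, 2 and 3 they held 3.16%, 3.85% and 2.93%. The groups did not overlap, and the mean share was 1.73 times as high in WT (5.72% ± 0.297) as in mutants (3.31% ± 0.476; SD, n = 3). Scaled by the TMM factors the sums were 60400 ± 2467 CPM in WT and 31482 ± 4591 CPM in mutants. 7 keratins were among the 100 genes with the highest mean CPM, and the 8 most abundant keratins made up at least 99.3% of keratin counts in every library. CPM counts reads and is not divided by transcript length, so these are shares of reads and do not rank keratin genes by molecules.

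Of the 23 keratins, 19 passed the filter on low counts. Among these, 5 were lower and 1 was higher in mutants (quasi-likelihood test in edgeR, adjusted p under 0.05 by Benjamini-Hochberg over 20438 genes), where 4.83% of all tested genes were lower and 9.91% were higher. Lower calls were 32.8% of all calls. Upper-quartile factors made this 48.4%, with 7 lower keratins, and unscaled library sizes made it 17.7%, with 4. The 5 lower keratins were krt91, krt5, krt15, krt18a.1 and cyt1, and the higher one was krt18b. The median log2 fold change of the 19 was -1.03 against -0.05 over all tested genes, and 18 of the 19 fold changes were below 0, under each of the 4 scalings run. All 3 mutant libraries lay below all 3 WT libraries for 10 of the 19, against 17.6% of tested genes, and above them for krt18b, against 19.4%. Of the 8 keratins with a mean of at least 100 CPM, 4 were lower, 1 was higher and 5 had all mutant libraries below WT. Over the 1551 tested genes at such levels the shares were 16%, 15.9% and 37.5%. DESeq2 on the same counts called 11 keratins lower and 1 higher, where it called 8.48% and 12.4% of genes, and the authors' deposited table also has 11 lower and 1 higher at adjusted p under 0.05 (8.28% and 12.3% of its genes). With any 1 library left out, edgeR called between 1 and 7 keratins lower, and the share of all tested genes called lower moved too. The number of keratins was 5 when WT replicate 1 was left out (3.05% of all genes) and 7 for mutant replicate 2 (3.47%), but 1 for WT replicate 3 (0.94%). It was 2 for each of WT replicate 2 and mutant replicates 1 and 3 (1.46%, 2.54% and 2.27% of all genes). In bulk samples, fewer cells of a type and less RNA per cell cannot be told apart.

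**Figure D1:**
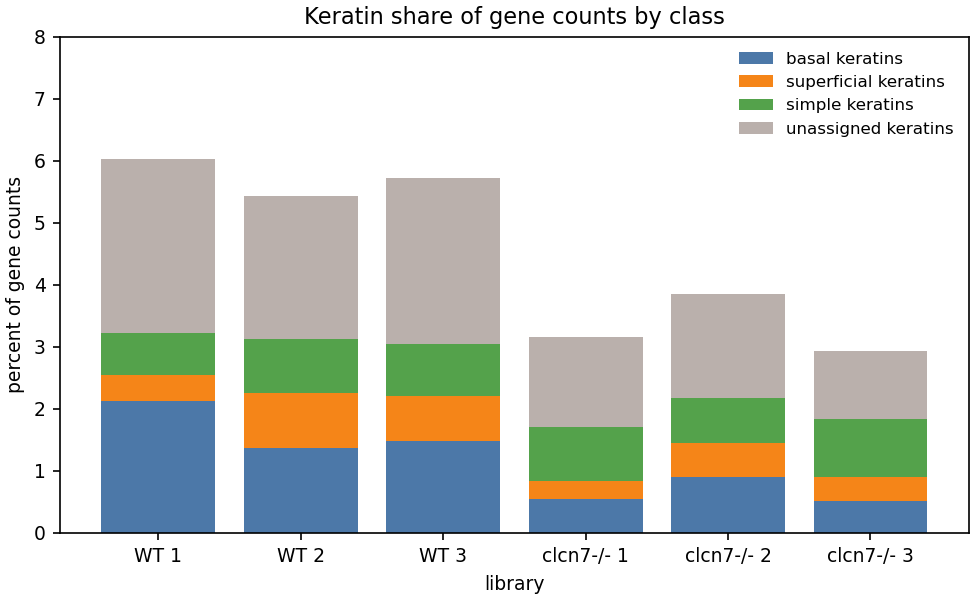
Percent of all gene counts (y axis) held by keratins in each of the 6 libraries (x axis), stacked by class; bars are single libraries. The WT bars reach 5.43% to 6.02% and the clcn7-/- bars 2.93% to 3.85%, and the simple keratin segment is of similar height in both.

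The basal class held krt5, krt15 and krtt1c19e, genes known from the basal layer of mammalian or zebrafish epidermis. Its summed level was 22087, 14547 and 15748 CPM in WT and 5421, 8532 and 4679 CPM in mutants, with every mutant library below every WT library. The mean was 2.81 times as high in WT, and 2.27 times without krt5, which in zebrafish is also active in the outer layer. The sum without krt5 is nearly all krt15, with means of 5380 of 5478 CPM in WT and 2395 of 2414 CPM in mutants. It therefore stands for krt15 rather than for the class. krt15 was placed here on knowledge from mammals, and its layer in these samples was not checked. Basal keratins made up 28.8% ± 5.66 of keratin counts in WT and 19.4% ± 3.57 in mutants. Without krt5 these shares were 9.13% ± 2.36 and 7.68% ± 2.06 and overlapped between genotypes. The members did not keep a fixed proportion. Counts of krt5 per count of krt15 ran from 0.888 to 4.56 over the libraries. Counts of krt4, a keratin of the superficial class, per count of krt15 ran from 1.07 to 1.66.

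krt5 (ENSDARG00000058371) encodes a type II chain that in mammals marks basal keratinocytes. Its levels in WT replicates 1, 2 and 3 were 17975, 8060 and 9912 CPM. In the mutant replicates they were 3764, 5427 and 2198 CPM. WT replicate 1 held about as much krt5 as the other WT libraries together, and no mutant library reached the lowest WT library. The log2 fold change was -1.66 ± 0.40 (SE; edgeR adjusted p = 0.0325). Without WT replicate 1 it was -1.20 and the call was lost (edgeR adjusted p = 0.0892). The call was also lost without WT replicate 3 or mutant replicate 1 or 3 (adjusted p = 0.0826, 0.0939 and 0.0713), with a range of 0.00011 to 0.0939 over all alternatives.

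krt15 (ENSDARG00000036840), a type I chain known from basal keratinocytes of mammals, also fell. WT libraries held 3945, 6407 and 5788 CPM and mutant libraries 1655, 3056 and 2475 CPM. Here WT replicate 1 was the lowest WT library, the opposite of krt5, and the groups again did not overlap. It fell by 1.17 ± 0.27 in log2 terms (edgeR adjusted p = 0.0288), and the call was lost without WT replicate 2 or 3 or mutant replicate 1 or 3 (adjusted p between 0.0709 and 0.115 in these, and between 0.000314 and 0.115 over all alternatives).

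krtt1c19e, a type I keratin used as a marker of basal epidermis in zebrafish, spread widely and did not pass. It stood at 167, 79.7 and 47.4 CPM in WT and at 2.21, 48.6 and 6.44 CPM in mutants. Mutant replicate 2 lay above WT replicate 3, while the other mutant libraries lay far below all WT libraries. The log2 fold change was -2.36 ± 1.01 (edgeR adjusted p = 0.164). Without mutant replicate 2 it was -4.49 and passed (edgeR adjusted p = 0.0123).

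The superficial class held krt4, krt17, krt92, cyt1 and cyt1l, genes known from the outer cell layers of zebrafish embryos. Its sum, nearly all krt4, was 4310, 9356 and 7670 CPM in WT and 2766, 5151 and 3588 CPM in mutants, and the groups overlapped because WT replicate 1 lay below mutant replicate 2. It took 11.9% ± 4.70 of keratin counts in WT and 12.1% ± 2.83 in mutants. krt4 (ENSDARG00000017624), a type II chain whose promoter is used to mark the outer layer, measured 4203, 9249 and 7606 CPM in WT and 2741, 5045 and 3549 CPM in mutants. Its log2 fold change was -0.89 ± 0.33 and did not pass in edgeR with genotype as the only term (adjusted p = 0.113). It passed in 2 of 14 alternatives, DESeq2 (adjusted p = 0.0311) among them.

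cyt1, a type I cytokeratin of the enveloping layer of the embryo, was the superficial keratin that passed, at a very low level. It measured 2.16, 3.87 and 2.61 CPM in WT and 0.173, 0.526 and 0.214 CPM in mutants, which rest on 55 to 98 counts per WT library and 4 to 15 per mutant library. Its log2 fold change of -3.21 ± 0.59 (edgeR adjusted p = 0.0113) had the largest size among the 19 keratins. It was called in all alternatives run other than the fit without WT replicate 2 (edgeR adjusted p = 0.0596). krt17 overlapped between genotypes, at 59.4 to 103 CPM in WT and 24.5 to 104 CPM in mutants (log2 fold change -0.66 ± 0.50, edgeR adjusted p = 0.425), and passed only without mutant replicate 2 (edgeR adjusted p = 0.0315). krt92 stood at 1.65, 1.93 and 2.09 CPM in WT and at 0.130, 1.09 and 0.930 CPM in mutants. Its groups did not overlap, but it did not pass (edgeR adjusted p = 0.233). cyt1l had at most 3 counts in any library, did not pass the low-count filter and was not called without it (edgeR adjusted p = 0.608).

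**Figure D2:**
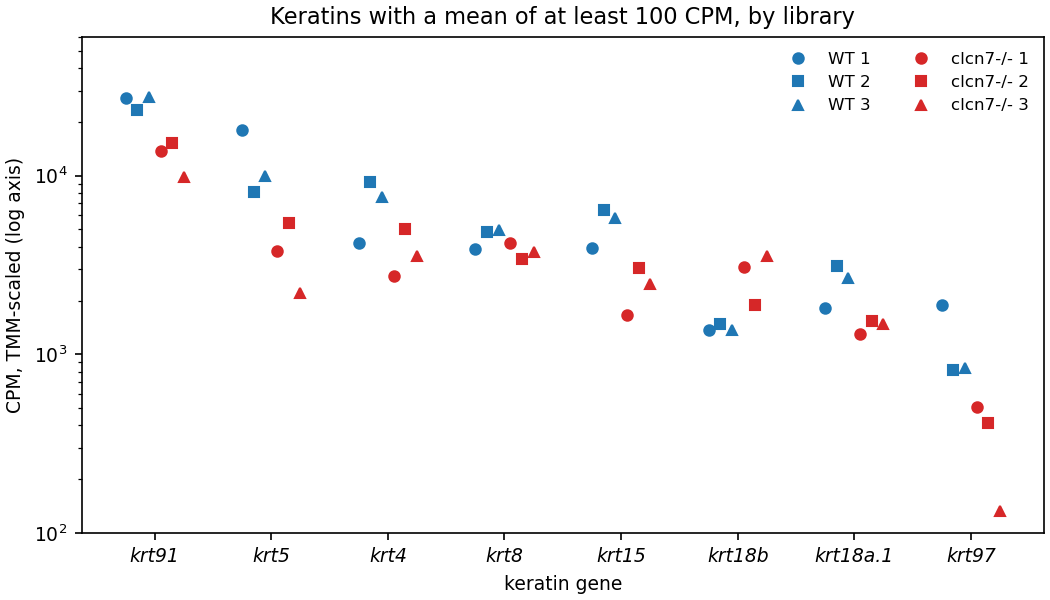
TMM-scaled CPM (y axis, log scale) of the 8 keratin genes with a mean of at least 100 CPM (x axis), 1 point per library, blue for WT and red for clcn7-/-. krt91, krt5, krt15, krt18a.1 and krt97 have all red points below all blue points, krt18b has them above, and krt4 and krt8 overlap.

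The simple class of krt8, krt18a.1, krt18b and krt18a.2 did not differ in sum beyond the spread of its libraries. The sum was 7090, 9410 and 9039 CPM in WT and 8578, 6843 and 8728 CPM in mutants, so the ranges overlapped. Simple keratins made up 11.3%, 16.3% and 14.8% of keratin counts in WT and 27.6%, 18.9% and 32.2% in mutants, without overlap. Within the class the members moved in opposite directions.

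krt18b (ENSDARG00000028618), a type I chain of the keratin 18 family, was the keratin that rose. It stood at 1372, 1470 and 1374 CPM in WT, the tightest spread of the 8 abundant keratins, and at 3071, 1880 and 3532 CPM in mutants. All mutant libraries lay above all WT libraries, with mutant replicate 2 the lowest. The log2 fold change was 1.01 ± 0.23 (edgeR adjusted p = 0.0277). The call held with every other scaling, filter and tool run. Of the 6 fits that left out 1 library it held only without mutant replicate 2, while the log2 fold change stayed between 0.82 and 1.23 (adjusted p = 0.0589 without WT replicate 1, and between 0.000263 and 0.0877 over all alternatives).

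krt18a.1 (ENSDARG00000018404), the other abundant gene of the keratin 18 family, fell. It measured 1815, 3127 and 2687 CPM in WT and 1293, 1528 and 1472 CPM in mutants. The groups did not overlap, and the mutant libraries lay closer together than the WT libraries. The log2 fold change was -0.83 ± 0.21 (edgeR adjusted p = 0.0404). With library size alone the call was lost (log2 fold change -0.67, edgeR adjusted p = 0.0703), and of the 6 fits that left out 1 library it held only without WT replicate 1 (adjusted p = 0.0128, and between 0.00243 and 0.15 over all alternatives).

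Between these genes the balance of reads turned over. There were 0.756, 0.47 and 0.511 counts of krt18b per count of krt18a.1 in WT and 2.37, 1.23 and 2.40 in mutants, so krt18a.1 had more reads in each WT library and krt18b in each mutant library. krt8 (ENSDARG00000058358), the type II partner of keratin 18, did not pass, at 3903, 4812 and 4978 CPM in WT and 4213, 3434 and 3724 CPM in mutants. Its ranges overlapped and its log2 fold change was -0.27 ± 0.16 (edgeR adjusted p = 0.32), with no call in any alternative run. The sum of krt18a.1 and krt18b per count of krt8 was 0.816, 0.955 and 0.816 in WT and 1.04, 0.992 and 1.34 in mutants. krt18a.2 had 1 to 20 counts per library and did not pass the low-count filter. It was not called where it was tested (adjusted p = 0.93 in edgeR without the filter and 0.942 in DESeq2).

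The other 11 keratins were put in no class. They made up 45.2% ± 2.50 of keratin counts in WT and 42.2% ± 4.52 in mutants, with overlap, more than any class. The comparison of classes leaves these reads out. krt91 (ENSDARG00000036830), a type I keratin, had the most reads of all genes in WT and ranked 4 in mutants by mean CPM, and it had the most reads of any keratin in each of the 6 libraries. It stood at 27080, 23370 and 27489 CPM in WT. In mutants it stood at 13783, 15215 and 9895 CPM. No mutant library came near the lowest WT library, and WT replicate 1 was not apart for this gene. Its call (log2 fold change -1.003 ± 0.20, edgeR adjusted p = 0.017) was kept in 5 of 6 fits that left out 1 library and lost without WT replicate 3 (edgeR adjusted p = 0.0828).

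krt97 (ENSDARG00000000212), a type I keratin, was like krt5 highest in WT replicate 1, at 1886 CPM against 819 and 832 CPM in the other WT libraries. Among the mutant libraries its order was not that of krt5. The mutant libraries held 505, 413 and 133 CPM, all below WT. It missed the threshold in edgeR (log2 fold change -1.75 ± 0.52, adjusted p = 0.0619) and passed in 5 of 14 alternatives, DESeq2 (adjusted p = 0.0012) and limma-voom (adjusted p = 0.0494) among them. krt1-19d, at 15.1, 6.43 and 6.52 CPM in WT and 0.606, 2.98 and 0.250 CPM in mutants, also had no overlap and narrowly missed (log2 fold change -2.86 ± 0.83, edgeR adjusted p = 0.0581). It passed in 6 of 14 alternatives.

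krt94 stood at 65.6 to 165 CPM in WT and 36.5 to 79.3 CPM in mutants and did not pass in edgeR with genotype as the only term (log2 fold change -1.03 ± 0.38, adjusted p = 0.111). It passed in 2 of 14 alternatives, DESeq2 (adjusted p = 0.0305) among them. krt222, which encodes a keratin-like protein, and krt99 stayed below 10 CPM with all mutant libraries under all WT libraries, and neither passed (edgeR adjusted p = 0.13 and 0.0793), though DESeq2 called krt99 lower (adjusted p = 0.0399). krt1-c5, krt98 and krt93 overlapped between genotypes at 0.173 to 14.4 CPM and did not pass either (edgeR adjusted p = 0.195, 0.406 and 0.606). krt95 had 3, 99 and 46 counts in WT and 0, 7 and 2 in mutants and did not pass the low-count filter. WT replicate 1 lay within the mutant range. DESeq2 called it lower (adjusted p = 0.0066), as does the authors' deposited table (log2 fold change -4.20, adjusted p = 0.0109). edgeR without the filter did not (adjusted p = 0.0759), and of 4 fits with 1 library left out that tested it, the fit without WT replicate 1 called it (edgeR adjusted p = 0.0395). krt96 had at most 12 counts in any library, did not pass the filter and was not called without it (edgeR adjusted p = 0.622).

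**Figure D3:**
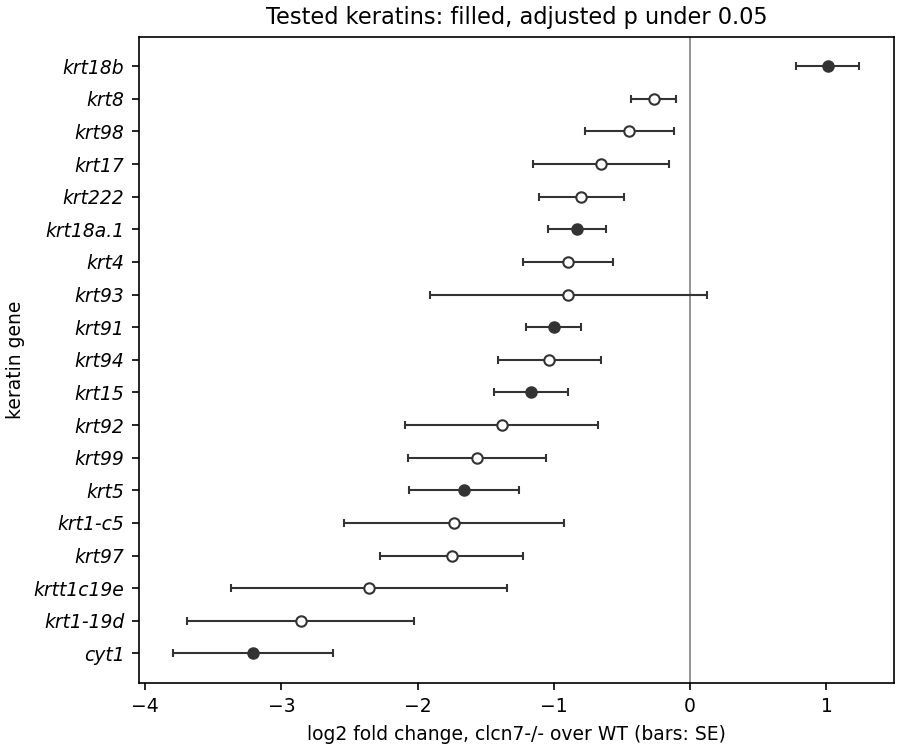
Log2 fold change of clcn7-/- over WT (x axis) with its SE as bars for the 19 tested keratins (y axis), filled where the edgeR adjusted p is under 0.05. krt18b stands alone above 0 at 1.01, and the other 18 lie between -3.21 and -0.27.

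Libraries of 1 genotype were not uniform in which keratins they held. Per count of krt4 there were 4.28 counts of krt5 in WT replicate 1 and 0.871 and 1.30 in WT replicates 2 and 3. The mutant libraries had 1.37, 1.08 and 0.619, so that only mutant replicate 3 lay outside the WT range. krt5, krt97, krtt1c19e and krt1-19d were highest in WT replicate 1, whereas krt4, krt15, krt94 and krt18a.1 were lowest there among WT libraries. Desmosomal genes, whose products join keratins of neighbouring cells, were also highest in that library as a sum, at 2650 CPM against 1587 and 1750.

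By type, the type II genes krt4, krt5 and krt8 summed to 23566 ± 2186 CPM in WT and 11365 ± 2288 CPM in mutants, and the 20 type I genes to 36834 ± 1461 and 20118 ± 2371 CPM. The counts of type I per count of type II were 1.40, 1.61 and 1.71 in WT and 1.90, 1.61 and 1.86 in mutants, with overlap. Every keratin other than krt4, krt5 and krt8 was counted as type I, the keratin-like krt222 among them. These types were assigned by gene name and not checked against protein sequences. These read ratios are not chain ratios, since transcript lengths were not applied.

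In the RefSeq gene order of the GRCz12tu assembly, which is not the authors' assembly, 21 of the 23 keratins stand in 5 groups of neighbours. The group with the most members runs krt1-19d, krtt1c19e, krt92, cyt1l, cyt1, krt17 and krt91 with no other protein-coding gene between them. All of its tested members had fold changes below 0, but so had 18 of the 19 tested keratins, so this does not set the group apart. A group of 5 holds krt93, krt94, krt98, krt15 and krt99, of which krt15 passed. krt5, krt8, krt18a.1 and krt18a.2 also lie side by side, so that krt8, which did not pass, stands between krt5 and krt18a.1, which both fell. krt18b stands apart from them beside krt4, with 1 gene between, and its fold change had the opposite sign to that of krt4. Reads that fit several places equally took 2.46% to 3.08% of each library and were not counted for any gene. How far this took reads from neighbouring keratins is not shown by the counts, and the likeness of their sequences was not checked. The levels of neighbouring keratins are uncertain to that extent. This holds for the high value of krt91 as for the low values of cyt1, cyt1l, krt92 and krt1-19d.

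Epidermal genes other than keratins gave the background of these changes. Of 18 tested genes on a list of epidermal markers without keratins, 10 were lower and 1 was higher in mutants, with a median log2 fold change of -1.27. Over all tested genes 4.83% were lower and 9.91% were higher. icn2, which encodes an S100-like calcium-binding protein of fish epidermis, went from 875 to 224 CPM on average (log2 fold change -1.97 ± 0.30, edgeR adjusted p = 0.0061). spint1a, which encodes an inhibitor of epithelial serine proteases, also fell (-1.30 ± 0.24, edgeR adjusted p = 0.0118), a call lost without WT replicate 3 (edgeR adjusted p = 0.0515). The riser was rbm47, which encodes an RNA-binding protein, at 1.94 ± 0.21 (edgeR adjusted p = 0.00185). The summed level of the 19 listed genes was 13177 to 15783 CPM in WT and 6819 to 8290 CPM in mutants. In place of 10, the number of lower genes was 1 when WT replicate 3 was left out (0.94% of all tested genes) and 3 for mutant replicate 1 (2.54%). It was 6 for WT replicate 2 (1.46%), and 7 or 8 for each other library (2.27% to 3.47%).

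Set against this list within each library, keratins as a whole did not separate the genotypes. There were 4.75, 3.88 and 3.86 keratin counts per count of the epidermal list in WT and 4.56, 4.37 and 3.61 in mutants. The same ratio overlapped between genotypes for krt91, krt5, krt15, krt4, krt18a.1 and krt97 taken singly. It did not overlap for krt8, at 0.296 to 0.324 in WT and 0.414 to 0.618 in mutants, or for krt18b, at 0.0871 to 0.104 in WT and 0.227 to 0.471 in mutants. Most counts of the list, 66.3% to 73.9% in each library, came from icn, an ictacalcin gene of fish epidermis (log2 fold change -0.95 ± 0.18, edgeR adjusted p = 0.0131). With icn taken out of the list, a choice made after seeing the data, there were 14.1, 14.9 and 14.4 keratin counts per count in WT. In mutants there were 14.6, 15.8 and 13.8, and the same single genes overlapped or not as with icn kept. Of the genes left, anxa1a had the most reads, at 2190 CPM on average in WT and 1344 CPM in mutants. icn stood at 10427 and 5411 CPM, of list sums of 14609 and 7539 CPM. anxa1a (-0.70 ± 0.15, edgeR adjusted p = 0.0215) and icn fell less than the list's median of -1.27. The ratios to this list therefore rest mainly on icn and anxa1a. A fall of similar size was not particular to this list. Mean summed CPM was 1.92 times as high in WT as in mutants for keratins and 1.94 times for the epidermal list. It was 1.88 times as high for the osteoblast list, with mean sums of 5389 CPM in WT and 2871 CPM in mutants. Of these, col10a1a alone held 2076 and 592 CPM. For the fibroblast list the fall was smaller, at 1.48 times. The epidermal list was chosen with results of these data known, and the part of epidermal cells in the keratin differences was not tested.

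**Figure D4:**
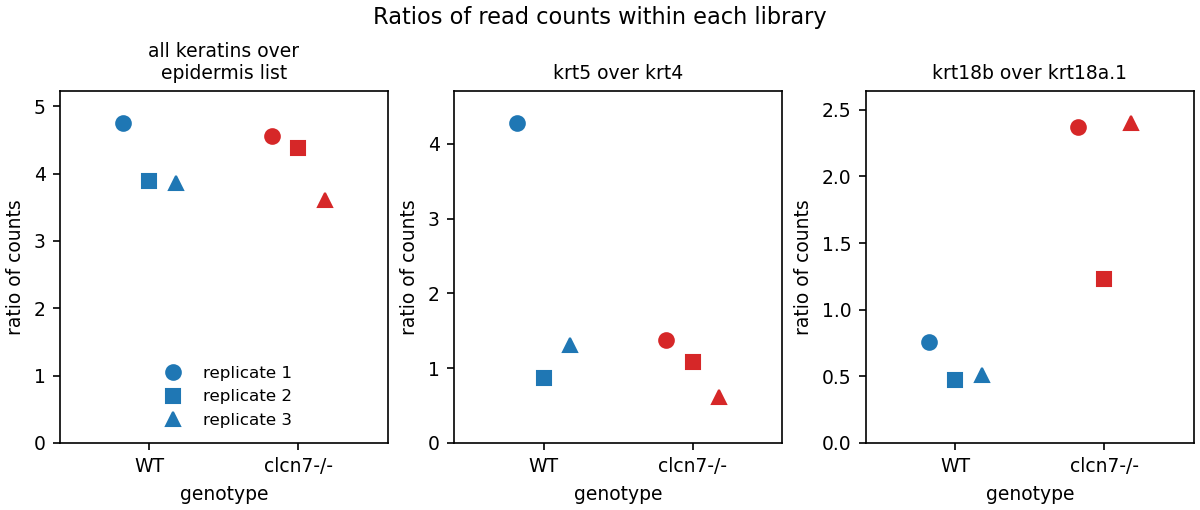
Ratios of read counts within each library (y axes) by genotype (x axes), 1 point per library, with marker shape for the replicate number. Keratins per epidermal count overlap between genotypes, krt5 per krt4 is 4.28 in WT replicate 1 and at most 1.37 elsewhere, and krt18b per krt18a.1 is 0.47 to 0.756 in WT and 1.23 to 2.40 in clcn7-/-.

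Keratin filaments are anchored at cell contacts by desmosomes and at the basement membrane by hemidesmosomes. Of 14 tested desmosomal rows, 4 were lower and none was higher, with a median log2 fold change of -1.27 and 9 without overlap below WT. Over all tested genes 4.83% were lower, 9.91% were higher and 17.6% lay below WT without overlap. No desmosomal gene was higher at an unadjusted p under 0.05 either (3351 of all 20438 tested genes), or in DESeq2 (12.4% of its tested genes). Without WT replicate 1 or 3 only 1 was lower, beside 3.05% and 0.94% of all tested genes. perp, a desmosomal membrane protein gene that is a target of p63, measured 715, 549 and 542 CPM in WT and 256, 306 and 174 CPM in mutants (log2 fold change -1.29 ± 0.23, edgeR adjusted p = 0.0104). jupa, a gene for plakoglobin, fell with it (-1.12 ± 0.23, edgeR adjusted p = 0.0189), but its call was lost without WT replicate 1 or 3 or mutant replicate 1 (adjusted p = 0.0577, 0.0728 and 0.0586).

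Of 10 tested genes of the hemidesmosome and basement membrane anchor, 5 were lower and none was higher, with a median of -1.04. Over all tested genes 4.83% were lower and 9.91% were higher. None was higher in DESeq2 (12.4% of all its genes) or at an unadjusted p under 0.05 (3351 of 20438 genes). Without WT replicate 2 or 3 or mutant replicate 3, 3 were lower, beside 1.46%, 0.94% and 2.27% of all tested genes. itgb4, which encodes the integrin chain that links keratins to the basement membrane, went from 290, 319 and 291 CPM in WT to 147, 170 and 128 CPM in mutants (log2 fold change -1.02 ± 0.15, edgeR adjusted p = 0.00509). The tetraspanin gene cd151l also fell (-0.90 ± 0.14, edgeR adjusted p = 0.00607). Both calls held in all 14 alternatives. The plectin genes pleca and plecb, whose products link intermediate filaments to many structures, did not pass (-0.25 ± 0.14 and -0.29 ± 0.14, edgeR adjusted p = 0.282 and 0.207).

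Of 15 tested epidermal transcription factor genes, 6 were lower and 1 was higher (4.83% and 9.91% over all tested genes), with a median of -1.20. Without WT replicate 3 only 2 were lower, beside 0.94% of all tested genes. gata3, which encodes a factor of epidermal differentiation, fell (-1.44 ± 0.20, edgeR adjusted p = 0.00458), and did so in all 14 alternatives. tp63, the gene of the master regulator of the basal epidermis, stood at 138, 86.1 and 108 CPM in WT and 26.1, 52.1 and 37.2 CPM in mutants (-1.52 ± 0.28, edgeR adjusted p = 0.0115). klf17, a factor of the embryonic outer layer that is also active in blood cells, rose from 2.13 to 4.97 CPM in WT to 7.49 to 17.5 CPM in mutants (1.58 ± 0.42, edgeR adjusted p = 0.0454), and its call held in 7 of 14 alternatives.

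Intermediate filament genes outside the keratin family had a median log2 fold change of -0.27 over 14 tested genes, of which 1 was lower and 1 higher. Over all tested genes 4.83% were lower and 9.91% were higher. lmnb1, which encodes a nuclear lamin, rose from 16.3 to 58.9 CPM on average (1.86 ± 0.27, edgeR adjusted p = 0.00486) and synm, the synemin gene, fell (-0.65 ± 0.18, edgeR adjusted p = 0.0461), a call that held in 6 of 14 alternatives and in 1 of 6 fits that left out 1 library. vim, the vimentin gene typical of mesenchymal cells, stood at 51, 119 and 116 CPM in WT and 39.1, 58.6 and 51.8 CPM in mutants and did not pass (-0.94 ± 0.32, edgeR adjusted p = 0.0937).

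**Figure D5:**
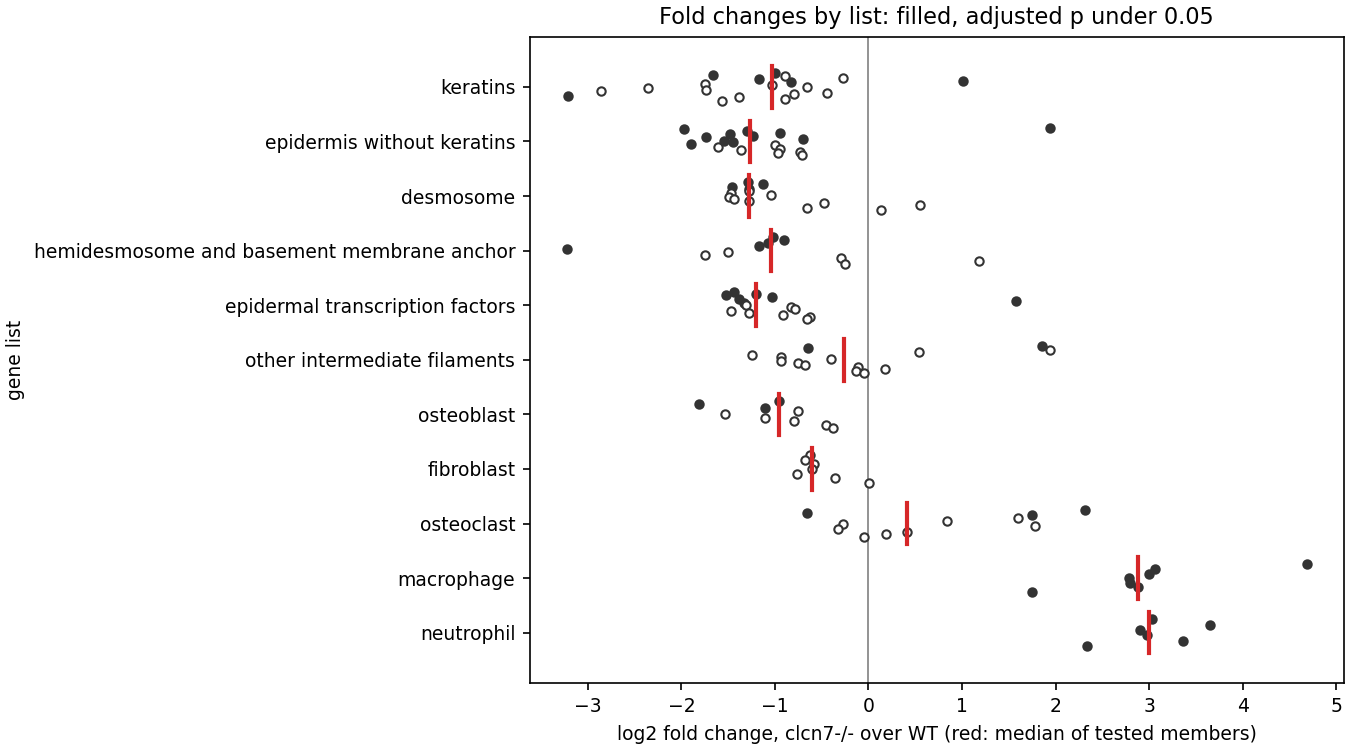
Log2 fold change of clcn7-/- over WT (x axis) for the tested genes of 11 lists (y axis), 1 point per gene, filled where the edgeR adjusted p is under 0.05, with a red line at the median. The medians are -1.03 for keratins, between -1.27 and -1.04 for the other epidermal lists and 2.88 for macrophages, with neutrophils close to them.

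Markers of some other cells also differed between the genotypes. The counts of calls below stand beside 9.91% of all tested genes called higher and 4.83% called lower. The 7 macrophage genes summed to 135 to 315 CPM in WT and 1032 to 2301 CPM in mutants and all 7 were higher, among them mfap4 (4.69 ± 0.44) and marco (3.07 ± 0.40). The 6 neutrophil genes summed to 128 to 185 and 1149 to 1622 CPM and all were higher, among them lect2l (3.03 ± 0.16) and lyz (3.65 ± 0.24). Of 6 erythroid genes 5 were higher, among them slc4a1a (2.78 ± 0.37) and alas2 (2.24 ± 0.31), with sums of 310 to 564 and 954 to 2555 CPM. Without WT replicate 3, 3 erythroid genes were higher, beside 5.47% of all tested genes. Osteoblast genes fell in 3 of 9 tested, alpl (-0.96 ± 0.14) and col10a1a (-1.81 ± 0.30) among them, with sums of 4276 to 6180 and 2723 to 2961 CPM. All 9 had fold changes below 0, as had 10930 of all 20438 tested genes, with a median of -0.96 in log2 terms. None of 7 fibroblast and 5 chondrocyte genes passed in edgeR, with dcn (-0.62 ± 0.18), lum (-0.58 ± 0.22), sox9a (-0.78 ± 0.23) and col2a1a (0.55 ± 0.89) as examples. At an unadjusted p under 0.05, 4 fibroblast genes and 1 chondrocyte gene were lower, beside 2851 of all 20438 tested genes. DESeq2 called 2 and 1 lower, beside 8.48% of its tested genes. The median log2 fold changes of the fibroblast and chondrocyte lists were -0.61 and -0.18. Of 11 osteoclast genes 2 were higher, tcirg1b (2.31 ± 0.38) and csf1ra (1.75 ± 0.48), and 1 was lower, nfatc1 (-0.65 ± 0.17), while their sum overlapped between genotypes at 1391 to 2950 and 2408 to 3478 CPM. The csf1ra call, on a gene that is also on the macrophage list, held in 7 of 14 alternatives and in 1 of 6 fits that left out 1 library. The nfatc1 call held in 9 of 14 and in 2 of 6, and was lost with library size alone. ctsk itself did not pass (0.84 ± 0.30, edgeR adjusted p = 0.102). Its mutant libraries all lay above its WT libraries, as for 19.4% of tested genes. Without WT replicate 1, 5 osteoclast genes were higher (8.62% of all tested genes), and without any other single library 1 was (5.47% to 8.43%). Of 4 endothelial genes tie1 passed (0.99 ± 0.27, edgeR adjusted p = 0.0486), a call that held in 6 of 14 alternatives and in 1 of 6 fits that left out 1 library. Mucous cell genes of the skin were low, with agr2 at 5.93 to 37.9 CPM (-0.71 ± 0.50) and muc5.1 at 0 to 12.8 CPM (-0.25 ± 1.27), and none of 3 tested passed, in edgeR, in DESeq2 or at an unadjusted p under 0.05. The ionocyte factors foxi3a and foxi3b stayed under 1.19 CPM in every library. Of 3 tested genes of the ionocyte list, the riser was the proton pump gene atp6v1aa (1.87 ± 0.24), which other cells also express. trpv6 went the other way (-1.52 ± 0.88) and slc12a10.2 the same way (1.87 ± 1.44), and neither passed (edgeR adjusted p = 0.293 and 0.434). The part of these cells in the keratin differences was not tested.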

How the data were processed

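RNA of sorted dsRed-positive cells was sequenced in 6 libraries, 3 per genotype, which the labels call biological replicates. The submitters' processing notes name GRCz11, HTSeq 0.9.1, STAR 2.7.0a, Trim Galore and DESeq2 (annotation, strand and settings: not given in the sources used here). For each library the authors deposited a file of read counts per gene, in whole numbers. The 5 rows that name no gene held 20.1% to 23.0% of counts and were left out. The authors also deposited a table of log2 values per library with fold changes (log2) and adjusted p-values per gene; its fold changes and adjusted p-values for keratins were used, and its calls over all genes were counted.

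Counts were tested with edgeR 4.0.16 in R 4.3.3, with filterByExpr (minimum count 10, minimum total 15), TMM scaling and genotype as the only term, and Benjamini-Hochberg adjustment ran over 20438 genes. After ±, log2 fold changes carry their SE and other values the SD of 3 libraries. This SE is the absolute log2 fold change divided by the square root of the quasi-likelihood F value. CPM uses TMM-scaled library sizes. Summed levels and ratios got no test. Replicates of a genotype differed by far more than counting noise. The edgeR steps were also run on counts simulated for each gene on its own, with known changes put in. That run checks the code and does not show which calls in the real libraries are true. Alternatives were RLE and upper-quartile factors, library size alone, no filter, a stricter filter (mean count of 10, and 1 CPM in at least 3 libraries), limma-voom (limma 3.58.1), DESeq2 1.42.0, the replicate number as a block, and leaving out each library. The keratins, classes and lists were chosen with earlier results of these data known. Every keratin is accounted for; values per library are given for those with a mean of at least 100 CPM or a call. Of each list, up to 2 genes per direction with the smallest p are named, or where none was called the 2 most abundant. ctsk, krtt1c19e, krt97, krt1-19d, krt95, icn, anxa1a, tp63, pleca, plecb, vim, trpv6, slc12a10.2 and foxi3a and foxi3b were added after their values were seen. Protein and promoter sequences were not used here. A gene that the rule for named genes selects is not reported here.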

Additional observations from a re-analysis of the deposited data

How the results depend on the processing

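The replicate numbers were not taken as pairs in the main fit. The deviations of same-numbered libraries from their genotype means correlated at 0.0332 to 0.236 across genes, against -0.211 to 0.0345 for libraries of different numbers. 5 of 6 libraries correlated best with their own number. Deviations within a genotype are tied through their shared mean, so these matches are not independent. These values do not give a reason to leave the number out, nor do they show that the libraries are pairs. With the number as a block, 9 keratins were lower beside 5.22% of all genes (1067, against 987 without it), with krt4, krt94, krt97 and krt1-19d gained (adjusted p = 0.0245, 0.00789, 0.0147 and 0.0408), while the synm and tie1 calls were lost (adjusted p = 0.0681 and 0.0732). DESeq2 called 11 keratins and 23 genes of the 3 lists of desmosomal, anchoring and transcription factor genes lower, against 5 and 15 in edgeR. The shares of all tested genes called lower were 8.48% and 4.83%. Leaving out each library gave 1 to 7 keratins lower and 0 to 1 higher. Of the genes of these 3 lists 6 to 17 were lower and 0 to 1 higher, and of all genes 199 to 737 and 1157 to 1828. The higher list gene, klf17, was also not called with upper-quartile factors and limma-voom. The log2 ratio of summed keratin CPM was -0.94 with TMM and -1.05 with upper-quartile factors, and that of the plain share of counts, which no scaling changes, was -0.79. Over all genes the median was -0.05 with TMM, and unscaled library sizes moved it to 0.10 and upper-quartile factors to -0.16, beside -1.03, -0.87 and -1.13 for keratins. The simple keratin log2 ratio of -0.08 became 0.07 as a plain share of counts. Without 1 library, the log2 fold change lay between -1.58 and 0.81 for krt93 (0.81 without WT replicate 1) and between -1.87 and 0.77 for muc5.1 (0.77 without WT replicate 1, 0.33 without replicate 1 of the mutants); the cause was not tested. Keratins under 10 CPM rest on few counts.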
